A study of Homo sapiens with 10 samples.

Results

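The interferon response genes are 47 genes that interferons switch on or that carry an interferon signal inside the cell, and their RNA was followed in MDA-MB-435, a human melanoma cell line. All probes annotated to these genes were taken, and those were kept whose detection score, a comparison with negative control beads, reached 0.99 on 1 or more arrays. This left 37 of the 47 genes, of 10601 genes kept in all, and 40 of their 57 probes. The rule itself uses gene names and detection.

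The study compared 4 treated groups of these cells with untreated cells on 10 Illumina Human-8 V1 BeadChip arrays, 2 biological duplicates per group. Cells were transduced with integrin Beta4 (ITGB4, stably raised), or treated for 1 h, 6 h or 24 h with hepatocyte growth factor (HGF), the ligand of the MET receptor kinase. The untreated cells were the common reference. All groups were the same line under standard growth conditions, and no empty-vector or vehicle group is among the labels, so transduction itself and handling cannot be told apart from ITGB4 and HGF. The HGF dose is not given in the sources used here. The labels name no interferon treatment and no infection in any group.

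Interferons bind cell surface receptors and activate the JAK kinases, which phosphorylate STAT transcription factors. The activated factors then bind the interferon-stimulated response element (ISRE) or the gamma-activated site (GAS) of target promoters. The targets include restriction factors that block viruses, enzymes that sense or degrade viral RNA, and the machinery that cuts, transports and presents peptides on MHC class I molecules. Many tumour lines keep part of this programme active at a basal level without added interferon.

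The promoters of the 4 members whose differences passed the test below are shown, with any match to these elements. Each is the RefSeq window (GRCh38.p14) from 250 bases before to 50 bases after a gene start, in the direction of transcription, with capitals marking a match to the ISRE core (GAAA, any 2 bases, GAAA) or to the GAS (TTC, any 3 bases, GAA) on either strand. IRF1 lies at chr5:132490724-132491023 on the minus strand and held 1 GAS, beginning 124 bases before the start. ISG20 lies at chr15:88638766-88639065 on the plus strand and held 1 ISRE, 69 bases before the start. IFITM3 lies at chr11:320811-321110 on the minus strand and held 2 ISREs, 52 and 35 bases before the start. MX1 has 3 listed starts, of which the first is shown, at chr21:41420308-41420607 on the plus strand, with 1 ISRE 11 bases after the start. The window of MX1 start 2 held no match, and that of start 3 held 1 ISRE and 1 GAS.
IRF1: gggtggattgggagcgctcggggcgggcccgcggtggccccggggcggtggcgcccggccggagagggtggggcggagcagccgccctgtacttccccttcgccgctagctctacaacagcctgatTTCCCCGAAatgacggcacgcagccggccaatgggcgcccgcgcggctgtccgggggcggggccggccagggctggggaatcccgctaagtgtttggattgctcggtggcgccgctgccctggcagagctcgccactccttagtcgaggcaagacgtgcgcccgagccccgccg
ISG20: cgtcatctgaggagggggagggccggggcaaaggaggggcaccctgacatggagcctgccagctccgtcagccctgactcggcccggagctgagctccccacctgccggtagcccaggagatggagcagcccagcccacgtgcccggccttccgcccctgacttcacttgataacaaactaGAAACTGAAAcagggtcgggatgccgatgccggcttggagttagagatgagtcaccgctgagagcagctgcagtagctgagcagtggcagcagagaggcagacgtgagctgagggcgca
IFITM3: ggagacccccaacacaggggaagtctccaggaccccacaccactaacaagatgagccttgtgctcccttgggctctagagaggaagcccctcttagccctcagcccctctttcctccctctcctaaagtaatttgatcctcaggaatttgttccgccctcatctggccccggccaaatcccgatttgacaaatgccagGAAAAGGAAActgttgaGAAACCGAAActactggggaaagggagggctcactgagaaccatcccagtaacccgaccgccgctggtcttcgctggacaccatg
MX1: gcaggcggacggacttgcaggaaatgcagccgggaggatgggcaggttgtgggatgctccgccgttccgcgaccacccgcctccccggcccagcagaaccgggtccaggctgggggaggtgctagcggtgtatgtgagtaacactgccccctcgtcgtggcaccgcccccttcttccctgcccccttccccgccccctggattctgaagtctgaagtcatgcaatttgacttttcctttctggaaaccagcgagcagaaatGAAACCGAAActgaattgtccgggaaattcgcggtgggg

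A promoter window was found for 34 of the 47 members, 9 of them with several starts. The ISRE core was in a window of 21 of the 34 (61.8%), against 4.38% of 27305 genes in the RefSeq table. The GAS was in a window of 10 of the 34 (29.4%), against 9.38% of all genes. The motifs can overlap, and a match is only a run of letters. The ISRE core also stood in well detected members that passed no test, 4 of which are shown with 8 flanking bases on each side, namely the ubiquitin-like modifier ISG15 (chromosome 1, 107 bases before the start), the RNA-binding IFIT1 (chromosome 10, 103 bases before, on the opposite strand), the peptide transporter subunit TAP1 (chromosome 6, 134 bases before its first listed start, opposite strand) and the class I light chain B2M (chromosome 15, 138 bases before).
ISG15 site: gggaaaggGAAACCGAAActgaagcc
IFIT1 site: ctttccccTTTCGGTTTCcctaggtt
TAP1 site: gcggccgcTTTCGATTTCgctttccc
B2M site: aagaaaagGAAACTGAAAacgggaaa
The ISRE core thus stood in ISG20, IFITM3 and MX1, which passed the test, and in members that did not pass. Whether the letters relate to a change was not tested. No match lay in the windows of STAT3, ADAR, IFI16, HLA-B, HLA-C or SP100.

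The arrays detected between 10226 and 11899 of 24105 probes (42.4% to 49.4%), with a median of 26 to 32 beads per probe. On replicate 1 of the untreated cells and of each HGF group, the 25th percentile of the detection score was 0.00814 to 0.0225, against 0.249 to 0.388 on the other 6 arrays, both ITGB4 arrays among them. This split is called array background here, and differences are also given within the low and the high arrays. Between HGF and untreated groups, or between HGF times, each such difference is 1 array minus 1 array. For a single probe the low and the high value average to the main difference, so they show its spread and are no separate support. Melanocyte markers were present, with 7 of 8 kept, and were lowest at 6 h, with summed signals of 20824.3 and 21156.7 in ITGB4 cells, 20231.5 to 22395.7 at 1 h, 16295.4 to 17666.1 at 6 h and 19001.7 to 22594.5 at 24 h, against 22954.5 to 26277.5 in untreated cells. The melanocyte regulator MITF, by the brightest of its 3 kept probes, was lower at 6 h than in untreated cells by -1.06 (adjusted p = 0.0361). The other MITF probes are not given here. S100B was lower at 6 h than at 1 h by -0.63 (adjusted p = 0.0393) and higher at 24 h than at 6 h by 0.62 (adjusted p = 0.0266). Among the other cell type markers, CD3D and CD14 of leukocytes, CDH1, EPCAM and KRT19 of epithelia and COL1A1, COL1A2 and PDGFRB of fibroblasts were not detected on any array, while the keratins KRT18 (10 arrays) and KRT8 (9 arrays) and the matrix proteins LUM and DCN (10 arrays each) were. The fibroblast sum was 712.2 and 803.2 in ITGB4 cells and 551.8 to 748 over the HGF groups, against 848.1 and 946.1 in untreated cells, and the epithelial sum was 433.8 to 677.7 over all arrays. Of 8 immune markers 5 were kept, with summed signals of 560.9 and 639.4 in ITGB4 cells, 627.5 to 722.6 at 1 h, 581.1 to 677.5 at 6 h and 567.1 to 687.5 at 24 h, against 517.8 to 569.1 in untreated cells. The part of any of these markers in the results was not tested.

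Most members were detected whether or not the cells were treated. Of the 40 kept probes, 29 were detected on all 10 arrays, 2 on 9, 2 on 7, 3 on 5 and 4 on 1. B2M, HLA-C, TAP1 and the tapasin gene TAPBP, all of peptide presentation, were detected on every array, and so were ISG15, IFI6, IFI16, ADAR and SP100. Members with probes but no detection on any array were IFIT5, IFITM1, IFITM2, MX2, OAS2, IFI44L and TRIM22. The 17 probes not kept had signals of 39.8 to 89.2, against a detection limit of 89.6. The probe annotation used here names no probe for IRF7, STAT2 or GBP1, which were not analysed here. Signals below are quantile-normalised intensities in arbitrary units and are compared only within a probe. In bulk RNA, fewer expressing cells and less RNA per cell cannot be told apart.

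The ligands were not detectable on these arrays. Probes for 10 interferon genes (IFNA1, IFNA2, IFNA5, IFNA6, IFNA8, IFNB1, IFNG, IFNL1, IFNK and IFNW1) were on the array, none was detected on any array, and their signals were 47 to 86.4. Of 9 receptor and kinase genes 6 were kept and 0 passed limma's test in any comparison, and IFNAR1, IFNAR2 and IFNLR1 were not detected. The median difference of the 6 from untreated cells was -0.11 at 1 h, -0.4 at 6 h and 0.08 at 24 h. It was -0.23 at 6 h against 1 h and 0.36 at 24 h against 6 h. Among the feedback inhibitors of the SOCS, PIAS and PTPN families, 6 of 7 were kept and 0 passed.

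**Figure D1:**
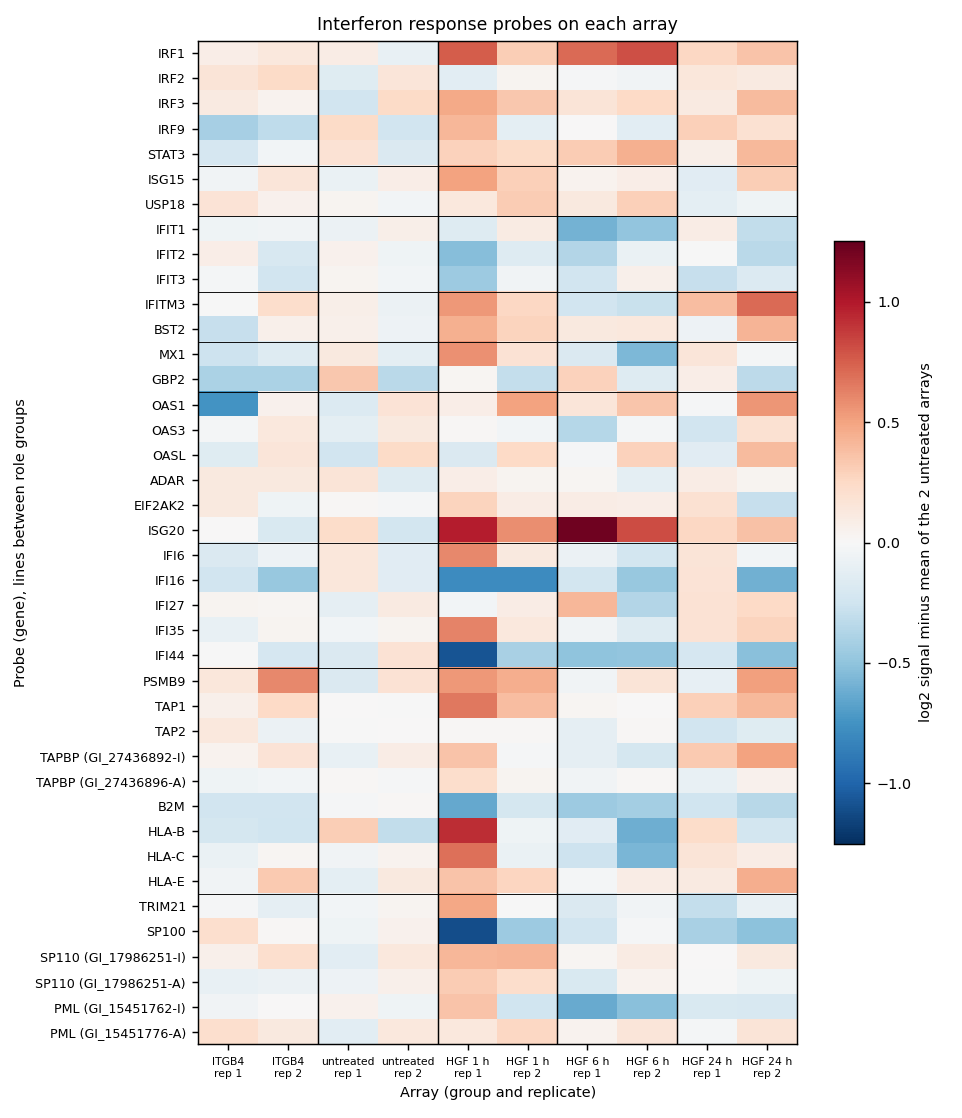
Each row is a kept probe of an interferon response gene and each column an array, with ITGB4 left of untreated cells and then HGF by time. Colour is the log2 signal minus the mean of the 2 untreated arrays. The HGF 1 h replicate 1 column is the most shifted upwards, with a median of 0.35 over 37 genes against 0.10 for HGF 1 h replicate 2.

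The members did not move together as a block. At 6 h against untreated cells, 2 of 40 probes were higher and 0 lower at an adjusted p under 0.05, where 1.9% of all 14018 kept probes passed (0.97% higher, 0.935% lower). These were ISG20 and IRF1. At 6 h against 1 h, 2 were lower and 0 higher (4.67% of all probes passed, 2.24% higher and 2.43% lower), MX1 and IFITM3. At 24 h against 6 h, 1 was higher and 0 lower (8.31% of all probes passed, 4.24% higher and 4.07% lower), IFITM3. The members' share was close to that of all probes at 6 h against 1 h and below it at 24 h against 6 h. No member passed at 1 h (0% of all probes), at 24 h (0%) or with ITGB4 (0.00713%) by limma. The ordinary pooled-variance test called 0 members in all 6 comparisons, and the share of all probes that it called is not given here.

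The largest median shift of the member genes was at 1 h, where none passed the adjusted threshold. The median difference of the 37 genes from untreated cells was 0.22 at 1 h on the log2 scale, against 0.04 over all kept probes. Of the 37 genes, 27 (73%) lay above 0, against 57% of all kept probes. At an unadjusted p under 0.05 there were 12 of 37 (32.4%), 8 higher and 4 lower, against 13.5% of all probes. The shift differed between the duplicates, since the median was 0.10 without HGF 1 h replicate 1 and 0.35 without replicate 2, where all probes gave 0.02 and 0.05. Within the low background arrays it was 0.27 and within the high ones 0.10. At 6 h the median was -0.05 (0.01 over all probes), or 0.11 in the deposited series table, where all probes gave 0.17, with 6 of 37 (16.2%) under an unadjusted p of 0.05 against 16% of all probes. At 24 h it was 0.07 (0.01 over all probes), with 4 of 37 (10.8%) against 5.71%. Both arrays of a group lay clear of both untreated arrays for 59.5% of the genes at 1 h, 48.6% at 6 h and 43.2% at 24 h. Over all kept probes this held for 44.2%, 44.6% and 29.6%. At 6 h against 1 h it held for 59.5% of the genes (48.5% of all probes). At 24 h against 6 h it held for 51.4% (42.8%). Pairs described below as clear of, above or below another pair are to be read beside these shares.

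**Figure D2:**
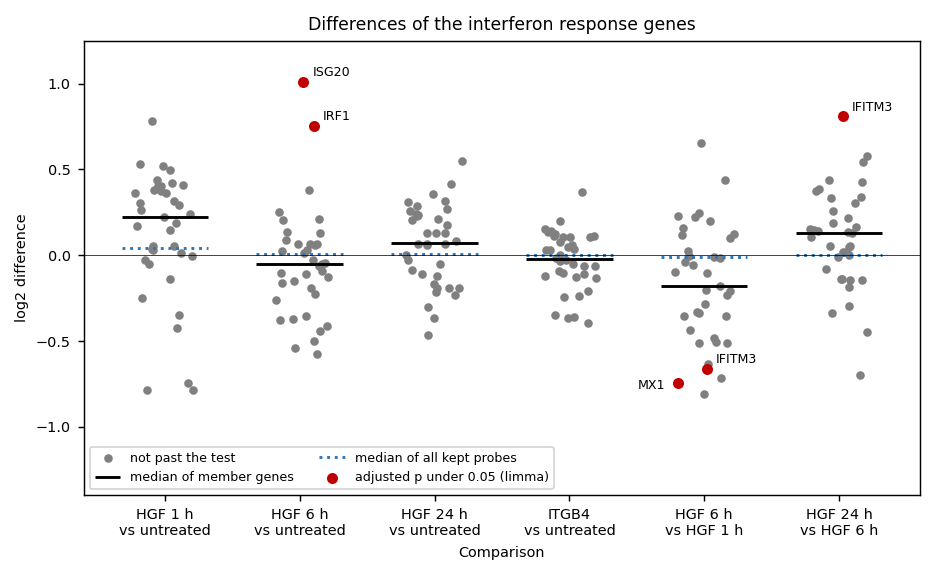
Each point is 1 member gene, by its brightest kept probe, with the log2 difference on the vertical axis and the 6 comparisons on the horizontal one. Black lines are the medians of the 37 genes and dotted lines those of all 14018 kept probes, and the named red points passed limma at an adjusted p under 0.05.

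Among the transcription factors, IRF1, an activator of ISRE genes that is itself an interferon target, rose at 6 h of HGF. Its signal was 227.2 and 165.9 at 1 h, 219.1 and 234.0 at 6 h and 160.4 and 172.0 at 24 h, against 142.6 and 126.2 in untreated cells. All 6 HGF arrays lay above both untreated arrays, and 6 h was the time with the highest mean. The share of all probes with every HGF array so placed is not given here. The rise at 6 h was 0.76 on the log2 scale (SE 0.17, 1.69-fold, adjusted p = 0.0457), with 0.62 within the low and 0.89 within the high background arrays. The difference was 0.53 at 1 h (SE 0.17, adjusted p = 0.239) and 0.31 at 24 h (adjusted p = 0.857). The 6 h call was lost without HGF 6 h replicate 1 or 2 (adjusted p = 0.157 and 0.286), without untreated replicate 1 or 2 (0.17 and 0.241) and without either ITGB4 array (0.0749). The background-subtracted values of the series table gave 1.40 at 6 h.

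Of the other factors, STAT3, which cytokine and growth factor receptors activate, did not pass. It had 368.7 and 358.0 at 1 h, 376.6 and 412.7 at 6 h and 317.6 and 399.5 at 24 h, against 343.3 and 266.4 in untreated cells. Both 1 h and both 6 h arrays were above the untreated pair and the 24 h arrays overlapped it, with differences of 0.26, 0.38 and 0.24 (adjusted p = 0.565, 0.32 and 0.915). IRF3, which turns on the interferon-beta gene after nucleic acid sensing, differed by 0.41 at 1 h (adjusted p = 0.356). IRF9, a DNA-binding factor of the ISRE, was detected on all 10 arrays at 241.9 to 432, and IRF2, a repressor of IRF1 targets, on 1 array only.

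ISG20, an interferon-induced RNA exonuclease, had the largest difference of any member from untreated cells. Its signal was 938.5 and 711.3 at 1 h, 1098.3 and 831.8 at 6 h and 569.1 and 612.0 at 24 h, against 554.4 and 405.5 in untreated cells. The 1 h and 6 h arrays were clear of the untreated pair, and the 24 h arrays lay just above it. ISG20 rose at 6 h by 1.01 (SE 0.21, 2.02-fold, adjusted p = 0.0304), with 0.99 within the low and 1.04 within the high background arrays. At 1 h the difference was 0.78 (SE 0.21, adjusted p = 0.192), with 0.76 and 0.81 within the low and high arrays. At 24 h it was 0.32 (adjusted p = 0.886), and 24 h was below 6 h by -0.70 (adjusted p = 0.0559). The 6 h call was lost without HGF 6 h replicate 1 or 2 (adjusted p = 0.189 and 0.0951) and without untreated replicate 1 or 2 (0.0662 and 0.206).

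The other RNA-sensing and editing enzymes passed no test. ADAR, which edits adenosine to inosine in double-stranded RNA, was the most even of the kept probes detected on all 10 arrays, with 1274.7 and 1228.7 at 1 h, 1225.1 and 1104.4 at 6 h, 1280.5 and 1229.0 at 24 h and 1312.4 and 1310.0 in ITGB4 cells, against 1345.8 and 1077.0 in untreated cells. Its whole range over 10 arrays was 0.32 on the log2 scale, within the spread of the untreated pair. OAS1, which makes the second messenger that activates RNase L, ranged from 142.2 on ITGB4 replicate 1 to 350.8 on HGF 24 h replicate 2. OAS3, of the same family, ranged from 127.4 to 185.8, the kinase EIF2AK2 (PKR) from 140 to 207.2, and OASL was detected on 5 arrays, replicate 2 of each group.

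IFITM3, a membrane protein that blocks the entry of enveloped viruses, passed in both comparisons between HGF times. Its signal was 961.3 and 787.3 at 1 h, 558.2 and 541.8 at 6 h and 860.8 and 1077.5 at 24 h, and untreated cells had 693.7 and 625.7. The 6 h pair was the lowest of all groups, and the 1 h and 24 h pairs were above the untreated pair. IFITM3 was lower at 6 h than at 1 h by -0.66 (SE 0.18, adjusted p = 0.0497), and higher at 24 h than at 6 h by 0.81 (SE 0.18, 1.75-fold, adjusted p = 0.0137). Both comparisons use the same 2 arrays of 6 h. Within the low and high background arrays the differences were -0.78 and -0.54 for 6 h against 1 h, and 0.62 and 0.99 for 24 h against 6 h. Against untreated cells it differed by 0.40 at 1 h (adjusted p = 0.343), -0.26 at 6 h (0.547) and 0.55 at 24 h (0.857).

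The IFITM3 call at 24 h against 6 h was lost without HGF 24 h replicate 2 (adjusted p = 0.0831) and without HGF 6 h replicate 1 or 2 (0.0694 and 0.0903). The call at 6 h against 1 h was lost without HGF 1 h replicate 1 or 2 (0.427 and 0.053), without HGF 6 h replicate 1 or 2 (0.201 and 0.2), without either ITGB4 array (0.0689) and without either untreated array (0.0631). IFITM1 and IFITM2 are close relatives of IFITM3 in sequence, so a probe may read more than 1 of them, and their own probes were not detected. BST2 (tetherin), which holds budding virions at the cell surface, had 621.0 and 553.9 at 1 h, 497.5 and 500.0 at 6 h and 435.8 and 611.2 at 24 h, against 478.0 and 435.1 in untreated cells. Its difference was 0.36 at 1 h (adjusted p = 0.432).

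MX1, a dynamin-like GTPase that blocks viral ribonucleoproteins, was lower at 6 h than at 1 h. Its signal was 530.3 and 404.1 at 1 h, 314.9 and 241.9 at 6 h and 398.0 and 352.1 at 24 h, against 389.1 and 328.8 in untreated cells. Both 6 h arrays lay under both untreated arrays and both 1 h arrays above them. At 6 h against 1 h MX1 differed by -0.75 (SE 0.19, adjusted p = 0.0432), with -0.75 within the low and -0.74 within the high background arrays. Against untreated cells the difference was 0.37 at 1 h (adjusted p = 0.419), -0.37 at 6 h (0.368) and 0.07 at 24 h (0.994), and at 24 h against 6 h it was 0.44 (0.196). The call was lost without HGF 1 h replicate 1 (adjusted p = 0.425), without HGF 6 h replicate 1 or 2 (0.0883 and 0.251), without either ITGB4 array (0.0642) and without either untreated array (0.0502). GBP2, the other GTPase kept, was detected on 5 arrays at signals of 77.1 to 128.3.

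**Figure D3:**
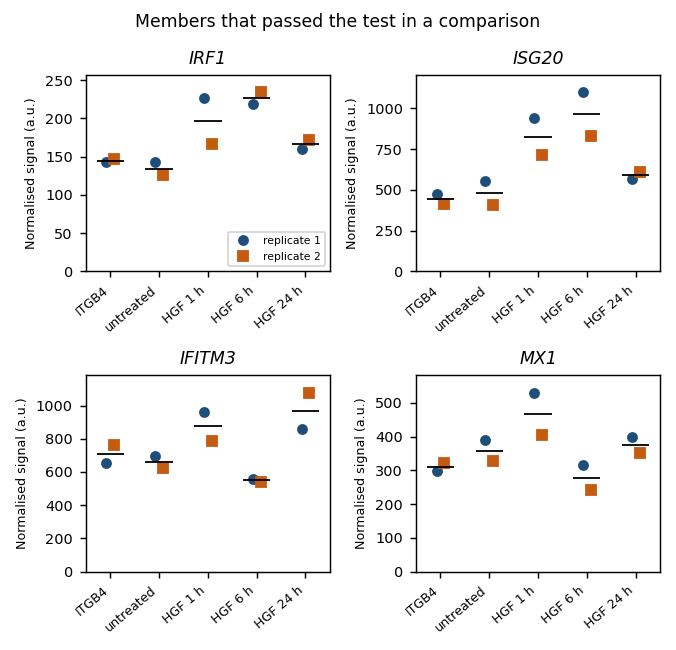
Normalised signal (arbitrary units, axis from 0) of IRF1, ISG20, IFITM3 and MX1 on each array, with circles for replicate 1, squares for replicate 2 and a line at the mean of the pair. IRF1 and ISG20 are highest at 6 h, while IFITM3 and MX1 are lowest there among the HGF times.

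ISG15, a ubiquitin-like protein joined to target proteins after interferon, had 2462.0 and 2124.8 at 1 h, 1785.4 and 1834.2 at 6 h and 1573.0 and 2138.3 at 24 h, against 1632.5 and 1838.9 in untreated cells. Both 1 h arrays were above the untreated pair, by 0.40 (SE 0.18, adjusted p = 0.357), and the later times overlapped it. USP18, the protease that removes ISG15, was detected on all 10 arrays at 108.7 to 147.8. IFIT1, which binds viral RNA that lacks host caps, had 156.7 and 188.6 at 1 h, 116.8 and 124.5 at 6 h and 186.5 and 141.4 at 24 h, against 166.2 and 185.0 in untreated cells. Only its 6 h arrays were clear of the untreated pair, by -0.54 (SE 0.18, adjusted p = 0.137). IFIT2 was detected on 7 arrays and IFIT3 on 1, and all 3 IFIT genes had differences below 0 at 1 h, 6 h and 24 h.

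The members did not share a direction at 1 h. IFI16, a sensor of DNA in the nucleus and cytoplasm, had 929.8 and 929.1 at 1 h, 1366.5 and 1157.7 at 6 h and 1805.8 and 1058.9 at 24 h, against 1766.9 and 1458.6 in untreated cells. The 1 h pair was the lowest, at -0.79 (SE 0.23, 0.579-fold, adjusted p = 0.204). SP100, a component of PML nuclear bodies, had 2103.3 and 3304.5 at 1 h, 3851.6 and 4478.6 at 6 h and 3415.8 and 3170.6 at 24 h, against 4380.9 and 4694.3 in untreated cells. Both 1 h arrays were below both untreated arrays, at -0.78 (SE 0.20, 0.581-fold, adjusted p = 0.19), and 6 h was above 1 h by 0.66 (adjusted p = 0.0832). IFI44 differed at 1 h by -0.74 (adjusted p = 0.208), with a signal of 86 on HGF 1 h replicate 1, under the detection limit, and 137.7 on replicate 2.

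IFI6, which limits cell death, had 3316.3 and 2375.3 at 1 h, 2077.6 and 1859.7 at 6 h and 2444.2 and 2135.0 at 24 h, against 2415.3 and 1976.5 in untreated cells. HGF 1 h replicate 1 was the highest of all 10 arrays, and the 6 h pair was below the 1 h pair by -0.51 (adjusted p = 0.141). IFI35 had 768 and 548.2 at 1 h against 488.6 and 510 in untreated cells, a difference of 0.38 (adjusted p = 0.375). The PML probe GI_15451762-I differed by -0.58 at 6 h (adjusted p = 0.141), while the other PML probe, detected on 1 array, differed by 0.10. Both SP110 probes were above untreated cells at 1 h, by 0.42 and 0.27 (adjusted p = 0.284 and 0.486). IFI27 was detected on 7 arrays at 71.1 to 122.6, and the ubiquitin ligase TRIM21 on all 10 at 99.6 to 171.

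The 8 antigen processing and presentation genes had mostly lower values at 6 h than at 1 h and 24 h, and none passed the test. Their median difference from untreated cells was 0.31 at 1 h, -0.11 at 6 h and 0.17 at 24 h, and at 6 h against 1 h all 8 lay below 0, with a median of -0.38 against -0.01 over all probes. The difference at 6 h against 1 h was only -0.01 for B2M. At 24 h against 6 h 7 of 8 lay above 0, with a median of 0.30 against 0, and TAP2 was at -0.15. Over all kept probes, 49.1% lay above 0 at 6 h against 1 h and 49.3% at 24 h against 6 h. The 7 melanocyte markers kept had medians of -0.39 at 6 h against 1 h and 0.40 at 24 h against 6 h. None of the 8 passed the adjusted test in any comparison, and 3 of 8 had an unadjusted p under 0.05 at 6 h against 1 h, where 20.5% of all probes did. With array background as a block, HLA-B, HLA-C and TAP1 passed as lower at 6 h than at 1 h, and TAPBP as higher at 24 h than at 6 h. The share of all probes called with that block is not given here. Both comparisons again share the 6 h arrays.

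TAP1, a subunit of the transporter that carries peptides into the endoplasmic reticulum, had 1663.6 and 1369.9 at 1 h, 1067.1 and 1056.8 at 6 h and 1297.2 and 1395.9 at 24 h, against 1058.0 and 1045.8 in untreated cells. The 1 h and 24 h pairs were above the untreated pair and the 6 h pair overlapped it, with differences of 0.52 (SE 0.16, adjusted p = 0.215), 0.36 (0.857) and 0.01 (0.987). TAPBP, which loads peptides onto class I molecules, had 2031.6 and 1570.5 at 1 h, 1475.3 and 1365.6 at 6 h and 1996.5 and 2257.2 at 24 h, against 1491.2 and 1695.0 in untreated cells, and was higher at 24 h than at 6 h by 0.58 (adjusted p = 0.0558). PSMB9, a catalytic subunit of the immunoproteasome, differed by 0.49 at 1 h (adjusted p = 0.361). TAP2 was detected on 5 arrays at no more than 100.8.

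The classical class I heavy chains had their highest signal on 1 array. HLA-B had 501.2 and 254.8 at 1 h, 239.8 and 172.9 at 6 h and 310.2 and 224.7 at 24 h, against 327.5 and 213.0 in untreated cells. HLA-C had 3491.0 and 2049.6 at 1 h, 1814.6 and 1456.6 at 6 h and 2428.4 and 2306.5 at 24 h, against 2099.8 and 2231.9 in untreated cells. For both genes the 1 h pair overlapped the untreated pair, and HGF 1 h replicate 1 was the highest of all 10 arrays. At 6 h against 1 h they differed by -0.81 (SE 0.30, adjusted p = 0.139) and -0.72 (SE 0.22, adjusted p = 0.0794). The HLA heavy chain genes are near-identical over long stretches and vary between cell lines, so these probes may read more than 1 of them.

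B2M, the light chain of all class I molecules, had a lower signal in every treated group, short of the test. It had 5221.2 and 6975.1 at 1 h, 5910.4 and 6043.9 at 6 h and 6805.9 and 6365.6 at 24 h, and 6849.0 on both ITGB4 arrays, against 8029.5 and 8188.4 in untreated cells. All 8 treated arrays were below both untreated arrays, with differences of -0.43 at 1 h (SE 0.17, adjusted p = 0.3), -0.44 at 6 h (0.203), -0.30 at 24 h (0.857) and -0.24 with ITGB4 (1.0). The share of all probes with every treated array below both untreated arrays is not given here. HLA-E, a non-classical heavy chain read by natural killer cells, ranged from 417.5 on untreated replicate 1 to 624 on HGF 24 h replicate 2. Of 10 further antigen presentation genes kept, outside the 47, none passed in any comparison, with a median of -0.30 at 6 h against 1 h.

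**Figure D4:**
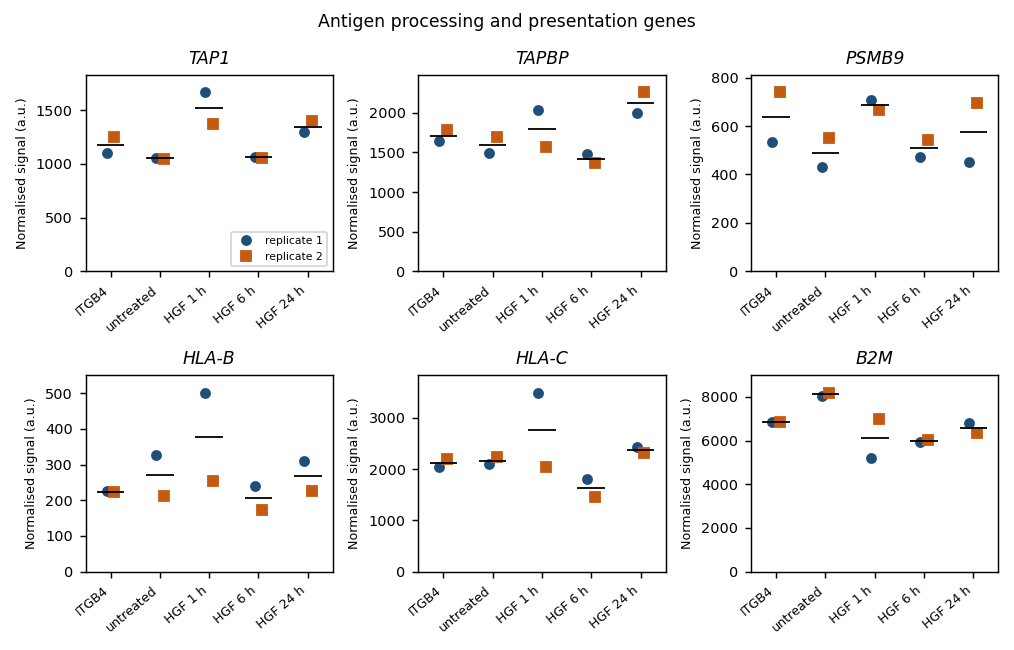
Normalised signal (arbitrary units, axis from 0) of 6 peptide presentation genes on each array, with circles for replicate 1, squares for replicate 2 and a line at the mean of the pair. TAP1, TAPBP and HLA-C are lower at 6 h than at 1 h and 24 h, and B2M is highest in untreated cells.

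In ITGB4 cells no member differed from untreated cells past the test. The median difference of the 37 genes was -0.02 (0 over all probes), the single probes ran from -0.40 to 0.37, and 0 of 37 had an unadjusted p under 0.05, against 0.835% of all probes. Both ITGB4 arrays were of high background, and against untreated replicate 2 alone the median was 0. The values of ITGB4 replicate 2 are those of its scanner table, which the deposited series table does not match for that sample. IRF1 had 142.5 and 146.8 in ITGB4 cells against 142.6 and 126.2 in untreated cells. ISG20 had 477.2 and 415.6 in ITGB4 cells against 554.4 and 405.5 in untreated cells. IFITM3 had 655.4 and 765.3 in ITGB4 cells against 693.7 and 625.7 in untreated cells. MX1 had 298.7 and 320.7 in ITGB4 cells, just under the 389.1 and 328.8 of untreated cells. The 95% interval of the difference was -0.27 to 0.49 for IRF1, -0.54 to 0.36 for ISG20, -0.28 to 0.48 for IFITM3 and -0.62 to 0.20 for MX1. These intervals are not adjusted for the number of probes. Differences within them are compatible with the 2 arrays per group, and their ends are not limits of detection.

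Of 58 kept genes of the other pathway lists, 1 passed at 6 h against 1 h and 2 at 24 h against 6 h, shares below the 4.67% and 8.31% of all kept probes. None passed in the other 4 comparisons. DHX58 (LGP2), a helicase that regulates the RNA sensors RIG-I and MDA5, had 342.0 and 300.7 at 1 h, 173.7 and 165.1 at 6 h and 331.2 and 351.3 at 24 h, against 252.5 and 271.3 in untreated cells. The 6 h pair was the lowest of all groups, and the 1 h and 24 h pairs were above the untreated pair. DHX58 fell at 6 h against 1 h by 0.92 (SE 0.17, adjusted p = 0.0137) and was higher at 24 h than at 6 h by 1.01 (SE 0.17, adjusted p = 0.00453), the only 1 of 9 sensors and adaptors kept that passed. The first call was lost without HGF 1 h replicate 1 (adjusted p = 0.21) and without HGF 6 h replicate 1 or 2 (0.0807 and 0.0959), and the later one held on leaving out each array in turn (0.00489 to 0.0415).

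UBE2L6, the conjugating enzyme for ISG15, had 275.6 and 325.2 at 1 h, 196.2 and 220.2 at 6 h and 330.8 and 382.8 at 24 h, against 216.3 and 300.3 in untreated cells. It was higher at 24 h than at 6 h by 0.78 (SE 0.20, adjusted p = 0.0312), 1 of 27 further interferon-stimulated genes kept, and no other of the 27 passed in any comparison. The values are those of the brighter of 2 kept UBE2L6 probes, and the other is not given here. The call was lost without HGF 24 h replicate 2 (adjusted p = 0.13) and without HGF 6 h replicate 1 or 2 (0.176 and 0.0942).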

How the data were processed

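RNA of MDA-MB-435 cells was hybridised to 10 arrays in 5 groups taken from the sample titles. The authors deposited, per array, a scanner intensity for each probe (mean bead brightness, linear, neither background subtracted nor normalised), a detection score as a fraction of 1, and bead numbers, written by BeadStudio 1.5.1.3 per the submitters' processing notes. They also deposited a series table of background-subtracted, rank-invariant intensities, used as an alternative only. In 9 of its 10 columns it is a straight line of the scanner values, but not for ITGB4 replicate 2, and the version that belongs to that sample is not known.

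Control probes and probes missing on an array were left out, and intensities were quantile normalised and taken to log2 with no offset. A probe was kept at a detection score of 0.99 or more on at least 1 array, the study's filter. Limma 3.58.1 in R 4.3.3 fitted 5 group means over 10 arrays, with a two-sided moderated test and Benjamini-Hochberg adjustment over 14018 probes. The number of arrays limits precision, with 5 residual degrees of freedom and 8.16 from the prior. The script was tested on simulated data. Groups of 2 allow no exact test that could pass.

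Members and lists were chosen with earlier results of these data known. Values on every array are given for called members and, per role group, the member with the largest difference from untreated cells and the brightest one, and a gene with several kept probes is counted by its brightest. IRF3, BST2, IFI35, IFI44, PSMB9, TAPBP, HLA-B, HLA-C, PML and SP110 were added after their values were seen. Alternatives were the background correction, scaling, filters, floor, samples in the fit, test, blocks and leaving out each array.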

Additional observations from a re-analysis of the deposited data

Results flagged for a closer look

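Several differences between HGF times passed limma's test of the difference itself, which compares the responses of the gene relative to untreated cells at both times. Each of these calls was lost under at least 1 of the alternatives given below, so a different response at both times is not established. IFITM3 differed by -0.66 at 6 h against 1 h and by 0.81 at 24 h against 6 h. MX1 differed by -0.75 at 6 h against 1 h. Among the pathway genes outside the 47, DHX58 differed by -0.92 at 6 h against 1 h and by 1.01 at 24 h against 6 h, and UBE2L6 by 0.78 at 24 h against 6 h. All of them use the same 2 arrays of 6 h, so they are not independent of each other. Over all 14018 kept probes, 4.67% passed at 6 h against 1 h and 8.31% at 24 h against 6 h.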

How the results depend on the processing

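Across 20 alternatives (10 other settings and 10 arrays left out in turn), none of the differences refitted reversed, which were those of the called genes and, per role group, the largest difference from untreated cells. STAT3, ADAR, IFI6, B2M and the members added after their values were seen were refitted only within the counts of calls. Calls were kept in 16 for IFITM3 at 24 h against 6 h, in 8 for IFITM3 and 9 for MX1 at 6 h against 1 h, and in 11 for ISG20 and 9 for IRF1 at 6 h. Those of DHX58 were kept in 16 at 6 h against 1 h and 19 at 24 h against 6 h, and that of UBE2L6 in 13. Of 140 refits of named members that were not called, 137 stayed uncalled and 3 passed.

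Against the 2 members called at 6 h, there were 0 with median scaling, with only the 2 compared groups, with the ordinary pooled-variance test and with signals floored at the detection limit, and 1 with no detection filter (ISG20) and with the series table (IRF1). Leaving out an array gave 0 to 2. Against the 2 at 6 h against 1 h, there were 0 with no filter, the series table, floored signals and the ordinary test, and 8 with array background as a block (SP100 higher, and HLA-B, HLA-C, IFI6, IFITM3, MX1, PML and TAP1 lower). Leaving out an array gave 0 to 6. Against the 1 at 24 h against 6 h, there were 0 with the ordinary test, 3 with detection on both arrays of a group and with normexp (IFITM3, ISG20 and TAPBP), and 4 with array background as a block, which adds MX1. Leaving out an array gave 0 to 2. Against 0 at 1 h, fitting only the 2 groups gave 2 (IFI16 and ISG20). At 24 h and with ITGB4 it was 0 under every alternative. The share of all kept probes called under each alternative is not given here, so a changed count need not be particular to the members. The causes of the changed counts were not tested.

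Replicate numbers are shared between groups, and their deviations correlated at -0.06 to 0.66 between groups. The correlation was 0.59 for untreated and 6 h, 0.66 for untreated and 24 h and 0.65 for 6 h and 24 h. It was 0.20 for untreated and 1 h, 0.37 for 1 h and 6 h, and -0.06 for ITGB4 and 1 h. The labels name no shared batch. The main fit did not take the replicates as pairs, so any effect they share stays in its residual spread. In untreated cells and each HGF group, replicate 1 was the low background array and replicate 2 the high one. As blocks, replicate number and array background thus differ only at ITGB4 replicate 1, and they are not separate checks. With the replicate number as a block, 3 members were called at 1 h (IFI16, ISG20 and SP100), 9 at 6 h against 1 h and 3 at 24 h against 6 h. The share of all kept probes called with that block is not given here, so these counts have no background to be set against.

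The series table put the median of all probes at 0.17 at 6 h and 0.14 at 6 h against 1 h. The members' medians there were 0.11 and -0.15. Signals near the detection limit of 89.6 hold little information on change.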
